A study of Mus musculus with 2 samples.

Results

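A group of 10 genes of the Wnt pathway was described in the mitral valve: the ligands Wnt5a and Wnt9b, the secreted antagonists Wif1, Dkk2, Dkk3, Sfrp1, Sfrp2 and Frzb, and the target genes Axin2 and Lef1. They were found by symbol and are 10 of the 32285 genes of each count matrix. They were selected on their measured levels and differences in these same libraries, so their levels and ratios are given as a description with no test. Single-cell RNA-Seq of mitral valve leaflets gave 1 library from WT mice (Fbn1+/+) and 1 library from Fbn1 mgR/mgR mice, called mgR below. Mice of both genotypes were 12 weeks old and on a C57BL/6J background, the WT mice were littermates, and the labels name no treatment. The mgR allele carries a selection cassette in an intron and leaves the coding sequence in place. It lowers production of fibrillin-1, a microfibril protein of the extracellular matrix that is affected in Marfan syndrome, and it is not restricted to any cell type. Viable cells were sorted after collagenase and elastase digestion and captured with the 3-prime 10x chemistry, which counts RNA molecules by unique molecular identifiers (UMIs).

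Wnt ligands are secreted, lipid-modified glycoproteins that bind Frizzled receptors together with LRP5 or LRP6. In the canonical branch this keeps β-catenin from being degraded, and β-catenin then enters the nucleus and acts with TCF and LEF factors on target genes. Secreted antagonists act outside the cell: WIF1 and the secreted Frizzled-related proteins bind the ligands themselves, whereas DKK2 binds the LRP coreceptors. In heart valves, Wnt9b is known as a ligand made by the endocardium that covers the leaflets, with the interstitial fibroblasts beneath it as the responding cells.

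Cells with 200 to 5000 genes and at most 10% mitochondrial UMIs were kept, 875 of 1104 WT and 3438 of 3802 mgR barcodes. Their median depth was 5033 and 7370 UMIs. A cell was taken as a fibroblast with at least 10 UMIs of Col1a2, Col3a1 and Dcn together, as a macrophage with at least 10 UMIs of C1qa, C1qb and C1qc, and as endothelium with at least 2 UMIs of Pecam1 and Cdh5. It also had to pass no other of these gates. This gave 322 WT and 879 mgR fibroblasts, 224 and 1539 macrophages, and 29 and 150 endothelial cells. All 5 fibroblast markers, all 5 macrophage markers and all 5 endothelial markers were detected in their own cell type in both libraries. These lists include the gate genes, whose detection follows from the gates. The markers outside the gates were Lum and Pdgfra for fibroblasts, Csf1r and Adgre1 for macrophages, and Kdr, Egfl7 and Emcn for endothelium. The small endothelial group follows from the exclusive gate, since 28 WT and 304 mgR cells passed both the fibroblast and the endothelial gate. In these cells Pecam1 stood at 1171 and 1054 counts per 1000000 UMIs (CPM) and Dcn at 9188 and 7225 CPM, while Col1a2 stood at 254 and 109 CPM. The endothelial gate on its own held 60 and 478 cells, and its values are given beside the exclusive ones where they differ. The libraries shared 2 of all barcodes and 0 of the kept ones.

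According to the methods only male mice were compared, but each library held cells with UMIs of Xist, which is transcribed in female cells, and cells with Y-linked UMIs. In the WT library, 246 kept cells held UMIs of Xist and none of 4 Y-linked genes, and 337 cells held Y-linked UMIs and no Xist. The mgR library held 2091 and 724 such cells. The labels do not tie cells to single mice, and single animals could not be told apart. A library may thus mix cells of several mice in proportions that are not known. Among fibroblasts, 25.2% of WT and 59.5% of mgR cells held Xist UMIs alone, 44.7% and 24.1% held Y-linked UMIs alone, and 29.8% and 15.5% held neither kind. These are called Xist-only, Y-only and unmarked cells, and ratios are also given within each. Fbn1, the targeted gene, had 289 UMIs (171 CPM) in WT fibroblasts and 839 UMIs (135 CPM) in mgR fibroblasts, a ratio of 0.790 (0.691 to 0.907). A single mgR fibroblast held 44 of these UMIs. The paper describes Fbn1 mRNA in homozygous mgR mice as severely reduced, and the reason for the milder ratio here was not tested. Of the marker lists of other cell types, macrophage markers summed to 18.9 CPM in WT and 58.8 CPM in mgR fibroblasts, endothelial markers to 18.4 and 36.8 CPM and mural cell markers to 185 and 232 CPM. Neutrophil markers summed to 3.55 and 20.5 CPM and T cell markers to 0 and 14.0 CPM in the same cells, and the part of these lists in the ratios was not tested.

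UMIs were summed per cell type and library and divided by the total of that cell type, so a level in CPM is comparable for the same gene between cell types and libraries. Levels of different genes were not compared. Parentheses hold 95% intervals, which reflect the counting error of UMIs and nothing else. With 1 library per genotype no difference here has a replicate check, and no P value was calculated.

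The 10 genes divided by cell type in both libraries. Fibroblasts held the great majority of the UMIs of 6 of them. Of all Wif1 UMIs in kept cells, 97.7% (WT) and 92.3% (mgR) were in fibroblasts, and for Sfrp2 these shares were 99.2% and 97.7%. Wnt5a (95.5% and 93.5%), Dkk3 (94.8% and 91.0%), Sfrp1 (96.7% and 93.8%) and Frzb (98.3% and 94.5%) were distributed in the same way. Wnt9b and Dkk2 were found in endothelium instead. Wnt9b had 29 UMIs in WT and 316 in mgR endothelium, against 0 and 2 UMIs in fibroblasts. Dkk2 had 31 and 261 UMIs in endothelium and 8 and 8 UMIs in fibroblasts. Cells that passed several gates held another 53.8% and 44.1% of the Wnt9b UMIs and 2.33% and 40.2% of the Dkk2 UMIs. The target genes were spread more widely, with Axin2 in fibroblasts, endothelium and T cells.

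**Figure D1:**
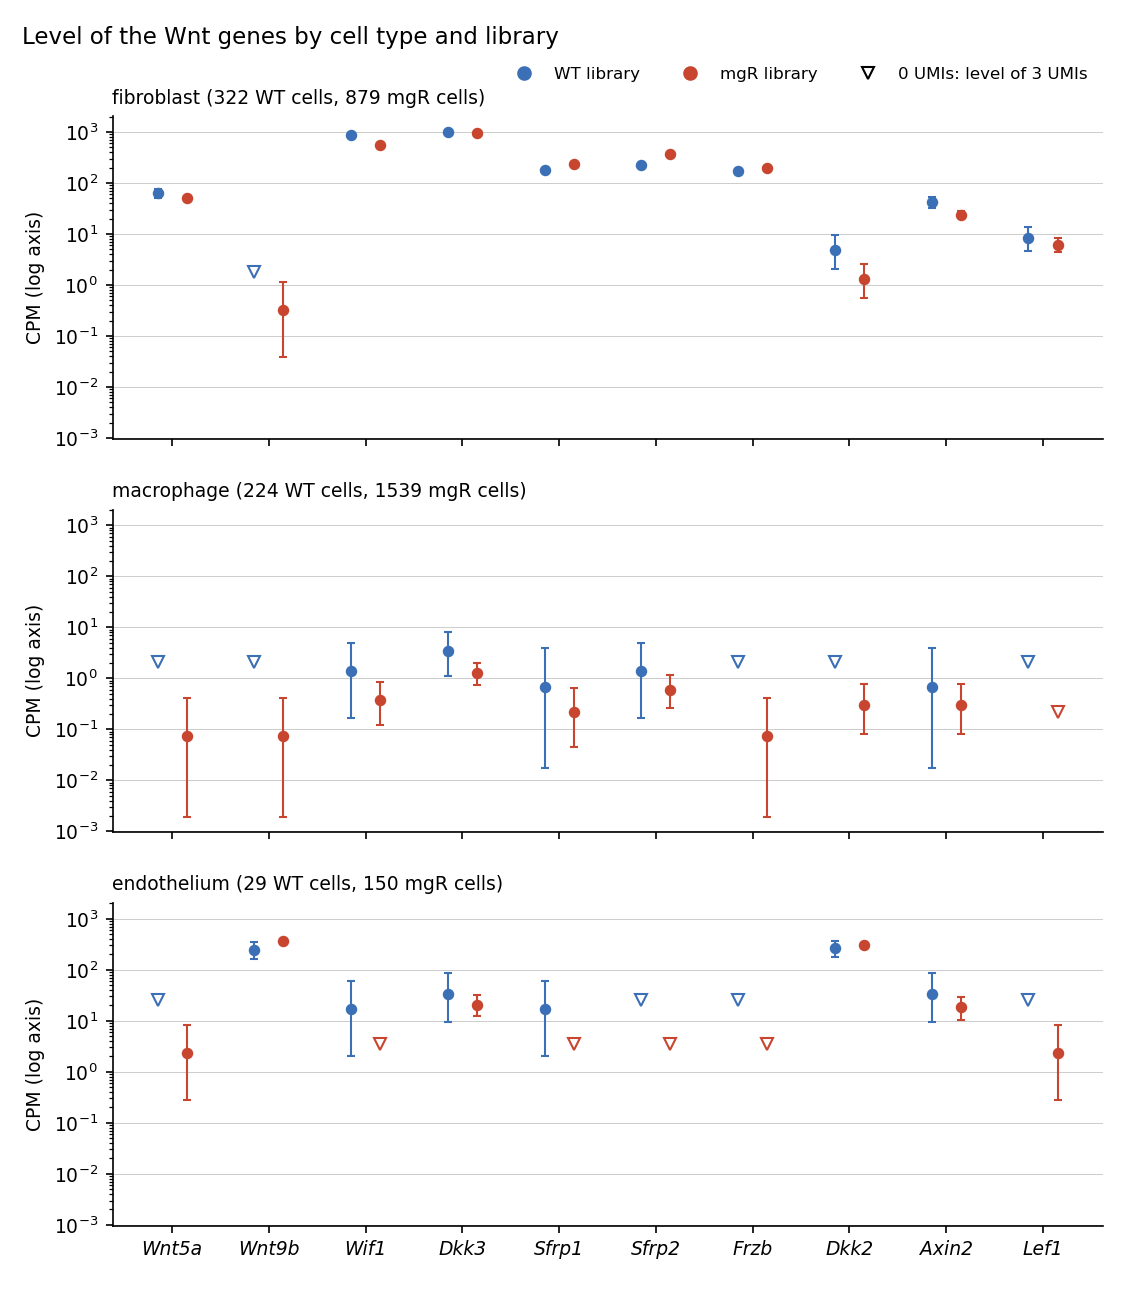
Level of each gene in CPM on a log axis, by cell type (panels) and library (blue WT, red mgR), with 95% Poisson intervals of the UMI sum; open triangles mark a count of 0 and stand at the level of 3 UMIs. Wnt5a, Wif1, Dkk3, Sfrp1, Sfrp2 and Frzb are high in fibroblasts, Wnt9b and Dkk2 in endothelium, and no gene exceeds 3.46 CPM in macrophages.

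All 10 genes are protein coding in the GENCODE annotation of GRCm38. Wif1 (ENSMUSG00000020218) lies on chromosome 10 from 121033960 to 121100650, Sfrp2 (ENSMUSG00000027996) on chromosome 3 from 83766321 to 83774316, Dkk2 (ENSMUSG00000028031) on chromosome 3 from 132085292 to 132180304 and Axin2 (ENSMUSG00000000142) on chromosome 11 from 108920349 to 108950783, all on the plus strand. Wnt9b (ENSMUSG00000018486) lies on the minus strand of chromosome 11 from 103727364 to 103749821. An annotated gene overlaps Sfrp2, Axin2, Wnt5a and Lef1 on the other strand, and Lef1 also on its own strand. How strand entered the counting is not given in the sources used here, so UMIs of these 4 genes are uncertain to that extent. A gene on the other strand also overlaps Fbn1.

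The sequence before the start of 5 of the genes is shown, for the members that differ in cell type or in direction: Wif1 and Sfrp2 of fibroblasts, Wnt9b and Dkk2 of endothelium, and the target gene Axin2. Each run is RefSeq sequence of GRCm38.p6, 5′ to 3′ on the strand of the gene, from 250 bases before the RefSeq start up to the base before the GENCODE gene. Windows were found for 7 of the 10 genes. Capitals mark matches on either strand to the TCF/LEF core CTTTGA, the TATA box TATAAA, the CCAAT box CCAAT and the GC box GGGCGG. Over 32851 windows of the same length, 13.8%, 12.4%, 33.8% and 32.7% held these motifs.
Wif1, chr10:121033754-121033959, plus strand: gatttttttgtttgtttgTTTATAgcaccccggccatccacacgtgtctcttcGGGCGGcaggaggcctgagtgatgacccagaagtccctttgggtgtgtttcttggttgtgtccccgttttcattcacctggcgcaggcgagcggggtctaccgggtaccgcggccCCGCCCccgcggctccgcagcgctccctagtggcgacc
Sfrp2, chr3:83766071-83766320, plus strand: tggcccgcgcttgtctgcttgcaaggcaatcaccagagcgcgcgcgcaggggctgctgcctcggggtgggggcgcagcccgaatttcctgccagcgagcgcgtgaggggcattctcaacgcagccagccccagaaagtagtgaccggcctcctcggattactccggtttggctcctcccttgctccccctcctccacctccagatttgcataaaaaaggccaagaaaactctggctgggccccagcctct
Wnt9b, chr11:103749822-103750071, minus strand: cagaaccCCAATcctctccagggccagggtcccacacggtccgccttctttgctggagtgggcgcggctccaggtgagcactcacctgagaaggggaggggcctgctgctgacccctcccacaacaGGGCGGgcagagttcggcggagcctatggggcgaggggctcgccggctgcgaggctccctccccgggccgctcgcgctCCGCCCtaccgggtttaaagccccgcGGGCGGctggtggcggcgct
Dkk2, chr3:132085042-132085291, plus strand: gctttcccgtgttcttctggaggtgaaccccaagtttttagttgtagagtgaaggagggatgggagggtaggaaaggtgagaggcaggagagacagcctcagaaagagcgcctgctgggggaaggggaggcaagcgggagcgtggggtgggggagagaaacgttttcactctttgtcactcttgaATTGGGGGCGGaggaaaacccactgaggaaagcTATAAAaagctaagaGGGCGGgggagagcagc
Axin2, chr11:108920099-108920348, plus strand: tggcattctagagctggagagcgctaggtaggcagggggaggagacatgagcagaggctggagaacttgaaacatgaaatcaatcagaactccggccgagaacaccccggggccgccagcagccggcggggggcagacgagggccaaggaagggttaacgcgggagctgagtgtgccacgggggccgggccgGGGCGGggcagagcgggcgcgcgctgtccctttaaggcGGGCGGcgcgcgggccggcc
The Dkk2 window held TATAAA 32 bases before the start, a reversed CCAAT box at 65 bases and GC boxes at 60 and 17 bases. The Wnt9b window held a CCAAT box at 243 bases and GC boxes at 124, 46 and 20 bases, the Axin2 window GC boxes at 58 and 20 bases, and the Wif1 window a reversed TATAAA at 232 bases and GC boxes at 197 and 82 bases. None of the 4 motifs was in the Sfrp2 window, and CTTTGA was in none of these 5 windows. Reversed matches to CTTTGA were in the Frzb window, 95 bases before the start, and in a Lef1 window, at 180 and 120 bases. These matches lie inside the GENCODE genes. A match describes letters and not a site in use.

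In macrophages all 10 genes were at or near 0. The highest was Dkk3, with 5 UMIs (3.46 CPM) in WT and 17 UMIs (1.26 CPM) in mgR macrophages. Fibroblast markers, at 22636 and 23850 CPM in fibroblasts, summed to 26.3 and 32.6 CPM there. Sfrp2 had 2 and 8 UMIs, Wif1 2 and 5, and Lef1 0 and 0, which allows up to 3 UMIs or 2.08 and 0.223 CPM. Macrophages were the deeper cells, with medians of 6013 and 8325 UMIs against 5182 and 6729 in fibroblasts. To compare shares of positive cells at one depth, every cell was thinned to 2000 UMIs, which left 292 of the WT and 846 of the mgR fibroblasts. The share of macrophages with a UMI was then at most 0.917% for every gene, and served as the background of free RNA. The exclusive gate leaves out macrophages with at least 10 fibroblast gate UMIs, so this background may be too low. Cells with at least 2 UMIs of Cd3d, Cd3e and Cd3g and no other gate were taken as T cells. Dkk3 was in 5.95% of WT and 6.85% of mgR T cells, Wif1 in 1.19% and 0.685% and Sfrp1 in 0% and 0%. The shares in fibroblasts were far above those of both cell types. They were 69.5% and 65.4% for Dkk3, 38.0% and 32.2% for Wif1 and 27.1% and 30.4% for Sfrp1.

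Among the ligands, Wnt5a, which mostly signals without β-catenin, had 106 UMIs in WT fibroblasts and 314 UMIs in mgR fibroblasts. Its level was 62.8 CPM (51.4 to 75.9) and 50.6 CPM (45.2 to 56.5), and the mgR to WT ratio was 0.807 (0.645 to 1.01). The interval included 1, so no difference was detectable at this depth. After thinning, 10.6% of WT and 8.16% of mgR fibroblasts held a Wnt5a UMI, a difference of -2.46 points (-6.93 to 1.42). Wnt5a had 0 WT and 2 mgR UMIs in endothelium.

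Wnt9b was the ligand of the endothelium. It had 29 UMIs in 9 of 29 WT cells and 316 UMIs in 61 of 150 mgR cells. Its level was 247 CPM (165 to 354) in WT and 362 CPM (323 to 404) in mgR endothelium, and the ratio was 1.47 (1.0 to 2.23). This ratio depended on the gate. With the endothelial gate on its own the level was 211 CPM from 64 WT UMIs and 176 CPM from 569 mgR UMIs, and the ratio of 0.837 (0.646 to 1.1) lay on the other side of 1. In that larger set a single WT cell held 23 of the 64 UMIs. The share of thinned cells with a Wnt9b UMI was 28.6% in WT and 33.3% in mgR endothelium, a difference of 4.76 points (-20.1 to 24.0). In Xist-only endothelium the ratio was 1.03 (0.572 to 2.04), in Y-only cells 1.69 (0.929 to 3.37) and in unmarked cells 2.76 (1.11 to 8.86). Fibroblasts and macrophages held 0 to 2 Wnt9b UMIs in each library.

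Wif1, which encodes a secreted protein that binds Wnt ligands, was lower in the mgR library. WT fibroblasts held 1460 Wif1 UMIs, a level of 865 CPM (821 to 910), and mgR fibroblasts held 3441 UMIs, a level of 555 CPM (536 to 574). The ratio was 0.642 (0.603 to 0.683). The share of thinned fibroblasts with a Wif1 UMI differed less, by -5.86 points (-12.5 to 0.613), and the interval of that difference included 0. Most Wif1 UMIs came from a small share of the cells. The median fibroblast held 0 UMIs in both libraries and the highest held 76 in WT and 117 in mgR. Cells with at least 10 Wif1 UMIs made up 13.4% of WT and 13.1% of mgR fibroblasts and held 72.7% and 75.2% of all Wif1 UMIs. The 10 cells with the most UMIs held 35.1% of the WT and 19.0% of the mgR total, and are a larger share of the WT than of the mgR fibroblasts.

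The lower Wif1 level was found in the Xist-only and Y-only cells and not in the unmarked ones. In Xist-only cells the level was 1127 CPM in WT and 539 CPM in mgR, a ratio of 0.478 (0.434 to 0.527). In Y-only cells it was 731 and 426 CPM, a ratio of 0.584 (0.521 to 0.655). In the 96 WT and 136 mgR unmarked fibroblasts it was 841 CPM in WT and 942 CPM in mgR, and the ratio of 1.12 (0.982 to 1.28) lay on the other side of 1. These last cells were shallower, with medians of 4302 and 4878.5 UMIs, and the part of depth in this was not tested. The unmarked group was added after the data had been seen.

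Sfrp2 and Sfrp1, both secreted Frizzled-related proteins, were higher in the mgR library. Sfrp2 had 376 UMIs in WT fibroblasts, a level of 223 CPM (201 to 246), and 2329 UMIs in mgR fibroblasts, a level of 375 CPM (360 to 391). The ratio was 1.69 (1.51 to 1.89). After thinning, 12.7% of WT and 21.9% of mgR fibroblasts held an Sfrp2 UMI, a difference of 9.20 points (4.04 to 13.8). Sfrp2 UMIs were concentrated in the same manner, and 4.04% of WT and 6.83% of mgR fibroblasts held at least 10 UMIs and carried 66.2% and 69.9% of the total. The 10 highest cells held 57.4% of the WT UMIs. The size of the ratio also depended on the cells compared. Xist-only cells gave 1.17 (0.993 to 1.38), Y-only cells 1.31 (1.09 to 1.58) and unmarked cells 3.94 (2.81 to 5.67).

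Sfrp1 had 296 UMIs (175 CPM, 156 to 196) in WT and 1480 UMIs (239 CPM, 227 to 251) in mgR fibroblasts. The ratio was 1.36 (1.2 to 1.55). Without thinning, 45.3% of WT and 54.2% of mgR fibroblasts held a UMI, with at most 10 UMIs in a WT cell and 22 in an mgR cell. After thinning the difference was 3.32 points (-2.97 to 9.28), an interval that included 0. With the fibroblast gate on its own the log2 ratio was 0.17 in place of 0.44. In Xist-only cells its ratio was 1.09 (0.889 to 1.36), an interval that included 1. In Y-only cells it was 1.52 (1.24 to 1.87), and in unmarked cells it was 1.66 (1.25 to 2.22).

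Dkk3 and Frzb differed little between the libraries. Dkk3, a divergent member of the Dickkopf family, had 1692 UMIs (1002 CPM, 955 to 1051) in WT and 5884 UMIs (949 CPM, 925 to 973) in mgR fibroblasts, a ratio of 0.947 (0.897 to 1.0). It was found in 84.5% of WT and 85.4% of mgR fibroblasts, with a median of 4 UMIs per cell in each library. Its ratio was 1.08 in Xist-only and 0.869 in Y-only cells, on either side of 1. Frzb, also known as sFRP3, had 286 UMIs (169 CPM, 150 to 190) in WT and 1195 UMIs (193 CPM, 182 to 204) in mgR fibroblasts. The ratio was 1.14 (0.999 to 1.30). The direction of Frzb was not stable: its log2 ratio was 0.18, but -0.077 after thinning and -0.083 with the fibroblast gate on its own, and its ratio was 1.40 in Xist-only and 0.815 in Y-only cells.

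Dkk2, whose product binds the LRP coreceptors, was the antagonist of the endothelium. It had 31 UMIs (264 CPM, 179 to 374) in 9 of 29 WT cells and 261 UMIs (299 CPM, 264 to 338) in 69 of 150 mgR cells, a ratio of 1.13 (0.780 to 1.70). With the endothelial gate on its own the levels were 105 and 139 CPM and the ratio was 1.32 (0.922 to 1.95). The intervals of both ratios included 1. In Xist-only cells the ratio was 1.81 (0.899 to 4.26) and in Y-only cells, of which 7 were WT, it was 0.465 (0.244 to 0.935). After thinning, 33.3% of WT and 33.3% of mgR endothelial cells held a Dkk2 UMI, with an interval of the difference from -24.9 to 20.6 points. Only 21 WT and 141 mgR cells were deep enough to be thinned.

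Axin2, a negative feedback inhibitor of β-catenin that is widely used as a readout of the canonical branch, had 71 UMIs in WT and 148 UMIs in mgR fibroblasts. Its level was 42.0 CPM (32.8 to 53.0) and 23.9 CPM (20.2 to 28.0), and the ratio was 0.568 (0.425 to 0.764). The ratio was close to this in Xist-only (0.559, 0.342 to 0.955), Y-only (0.598, 0.368 to 0.975) and unmarked cells (0.519, 0.235 to 1.14). No fibroblast held more than 4 Axin2 UMIs. After thinning, 7.19% of WT and 5.32% of mgR fibroblasts held one, a difference of -1.87 points (-5.73 to 1.32) whose interval included 0. In endothelium Axin2 had 4 and 16 UMIs, and with the gate on its own 11 and 64 UMIs, a ratio of 0.548 (0.287 to 1.15).

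Lef1, a transcription factor that binds β-catenin and is itself a target, had 14 UMIs (8.29 CPM) in WT and 38 UMIs (6.13 CPM) in mgR fibroblasts, a ratio of 0.739 (0.391 to 1.48). All 14 WT UMIs lay in 10 cells. Lef1 is also a factor of T cells, so cells with at least 2 UMIs of Cd3d, Cd3e and Cd3g and no other gate were examined, 90 in WT and 148 in mgR. There Lef1 had 3 UMIs (7.47 CPM) and 16 UMIs (18.8 CPM), a ratio of 2.51 (0.719 to 13.5). Axin2 had 13 UMIs (32.4 CPM) and 26 UMIs (30.5 CPM) in the same cells, a ratio of 0.942 (0.467 to 2.0). Neither gene differed detectably between the genotypes in T cells at this depth.

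Of the 8 genes with at least 20 UMIs in fibroblasts, 1 was higher by 1.5-fold in the mgR library (Sfrp2) and 2 were lower (Wif1 and Axin2). Over all 11387 genes with as many UMIs, 9.96% were higher and 10.1% were lower by 1.5-fold. In macrophages only Dkk3 reached 20 UMIs, and it was lower, where 19.1% of all genes were higher and 8.19% lower. In endothelium 4 genes did so, none was higher and Dkk3 and Axin2 were lower, each from 4 WT UMIs. There 21.6% of all genes were higher and 17.6% lower. Since the genes were selected on these values, nothing is read from these counts.

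**Figure D2:**
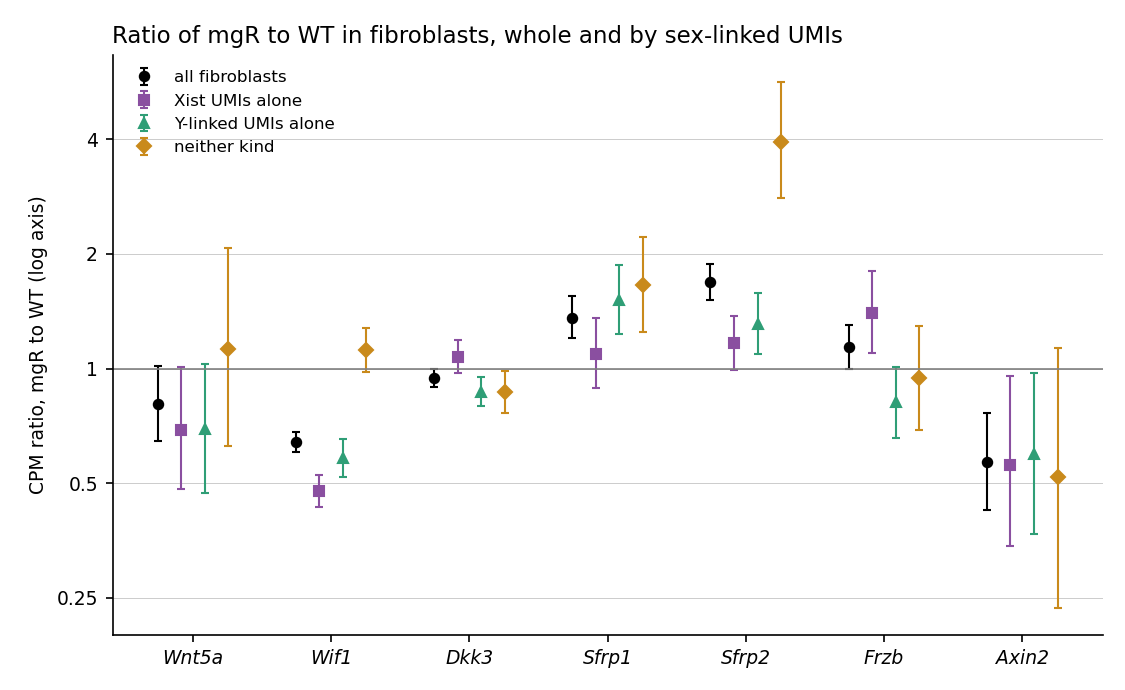
Ratio of the CPM in mgR to that in WT fibroblasts on a log axis, with 95% intervals for counting error, over all fibroblasts (black) and in Xist-only (purple), Y-only (green) and unmarked cells (orange). Axin2 lies below 1 in every group of cells, Wif1 lies below 1 in all but the last, and Sfrp2 ranges from 1.17 to 3.94.

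Fibroblasts of the leaflet were then divided by genes outside the pathway, which were chosen with earlier results of these data known. The Fmod set held more UMIs of Fmod, Prg4 and Scx, which encode the matrix proteins fibromodulin and lubricin and a tendon transcription factor, than of Ptx3, Igfbp3 and Smoc2, and at least 3 of them. The Ptx3 set was the reverse. Most defining UMIs of the Fmod set were of Prg4, 3988 in WT and 15610 in mgR cells. Fmod had 187 and 1385 UMIs there and Scx 59 and 402. The Fmod set made up 35.4% of WT and 42.5% of mgR fibroblasts and the Ptx3 set 32.3% and 31.3%. The rest belonged to neither set. In both libraries the antagonists fell on opposite sides of this division.

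Wif1 belonged to the Fmod set. In WT cells its level was 1568 CPM there and 252 CPM in the Ptx3 set, a ratio of 6.23 (5.23 to 7.47), and in mgR cells it was 961 and 157 CPM, a ratio of 6.13 (5.46 to 6.90). Dkk3 was also higher in the Fmod set, by a ratio of 2.44 (2.15 to 2.77) in WT and 2.78 (2.59 to 2.99) in mgR cells. Frzb followed with 2.03 (1.53 to 2.73) and 2.61 (2.25 to 3.04), and Wnt5a with 1.70 (1.03 to 2.86) and 2.04 (1.53 to 2.74). Sfrp1 was higher in the Ptx3 set, with Fmod to Ptx3 ratios of 0.412 (0.303 to 0.555) and 0.423 (0.373 to 0.479). Sfrp2 was too, at 63.7 against 540 CPM in WT cells, a ratio of 0.118 (0.0837 to 0.163), and 242 against 650 CPM in mgR cells, a ratio of 0.373 (0.340 to 0.409). The intervals of the Sfrp2 ratios in the libraries did not overlap, but they leave out the clustering of UMIs in few cells. In WT cells, 10 cells held 83.7% of the Sfrp2 UMIs of the Fmod set and 69.9% of those of the Ptx3 set. Axin2 differed in mgR cells, with a ratio of 1.86 (1.21 to 2.91), and in WT cells the ratio of 1.19 (0.645 to 2.22) could not be told from 1.

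**Figure D3:**
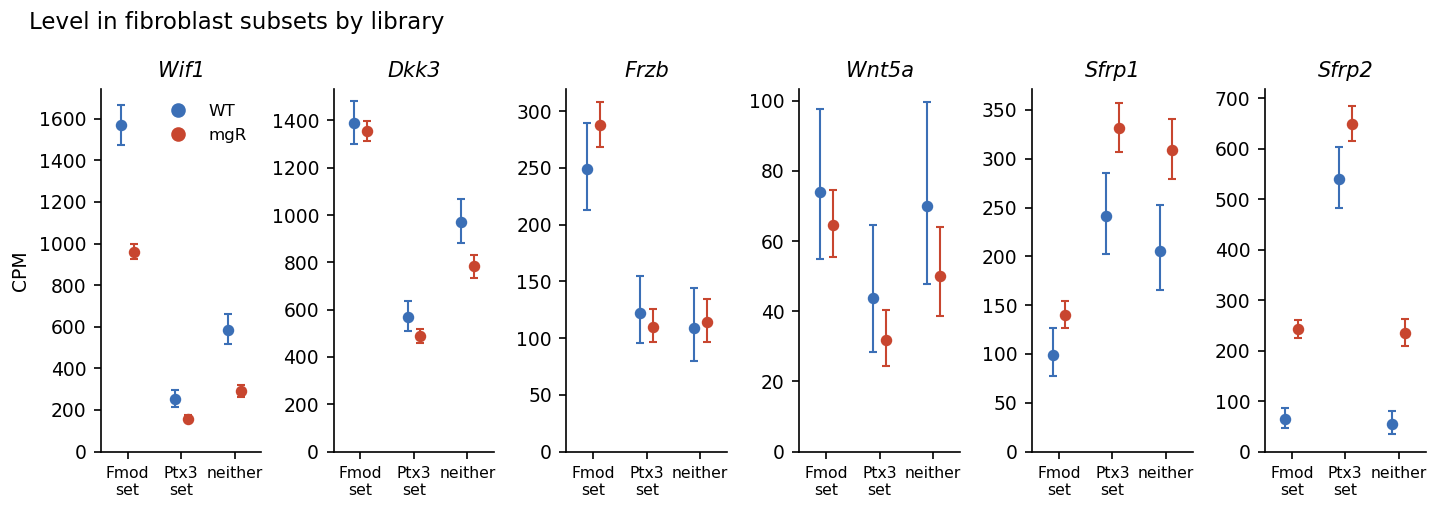
Level in CPM of Wnt5a and of the antagonists of fibroblasts in the Fmod set, the Ptx3 set and the remaining fibroblasts, by library (blue WT, red mgR), with 95% Poisson intervals; each panel has its own axis from 0. Wif1 is lower in mgR cells of all 3 groups, and the Sfrp2 level of mgR cells exceeds that of WT cells most outside the Ptx3 set.

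The genotypes were also compared within these sets. The sets are not strictly alike in the libraries, since some of their defining genes differed too. Over all fibroblasts Fmod stood at 118 CPM in WT and 233 CPM in mgR cells, and Ptx3 at 517 and 316 CPM. Prg4, which gave most of the defining UMIs of the Fmod set, differed less, at 2409 and 2561 CPM. The minimum of 3 UMIs is also met more easily in the deeper mgR cells. Wif1 was lower in mgR cells of the Fmod set (0.613, 0.571 to 0.659), of the Ptx3 set (0.623, 0.511 to 0.764) and of the remaining cells (0.496, 0.422 to 0.583). Sfrp1 was higher in all 3, with ratios of 1.41 (1.09 to 1.86), 1.37 (1.14 to 1.66) and 1.5 (1.19 to 1.90). For Sfrp2 the ratio was 3.8 (2.79 to 5.30) in the Fmod set, where 43 WT UMIs stood against 692 mgR UMIs, and 4.32 (2.85 to 6.85) in the remaining cells. In the Ptx3 set, which held 309 of the 376 Sfrp2 UMIs of WT fibroblasts, the ratio was 1.2 (1.06 to 1.37). Axin2 ratios were 0.675 (0.434 to 1.08), 0.432 (0.239 to 0.80) and 0.549 (0.318 to 0.967). Dkk3 was within counting error in the Fmod set (0.976, 0.909 to 1.05) and lower in the Ptx3 set (0.855, 0.754 to 0.972) and in the remaining cells (0.807, 0.720 to 0.906).

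The pattern over single fibroblasts followed the same division. Correlations are Pearson coefficients of log-scaled UMIs over the 322 WT and 879 mgR fibroblasts, given as a description, since the cells share a library and differ in depth. Genes were ranked by the lower coefficient of the 2 libraries. Among 7954 genes, Dkk3 ranked first for Wif1 (0.44 in WT and 0.51 in mgR cells), followed by Prg4 (0.41 and 0.50), which is among the genes that define the Fmod set, and Prelp (0.39 and 0.44). Of WT cells with a Wif1 UMI 96.2% also held Dkk3, against 73.5% of the other cells, and in mgR cells these shares were 98.7% and 75.7%. Wif1 and Sfrp2 were seldom together in WT cells, where 12.8% of Wif1-positive and 26.5% of the other cells held Sfrp2. In mgR cells the shares were 27.9% and 34.8%. For Sfrp2 the first was Ccn5 (0.62 and 0.53), a matrix protein gene that responds to Wnt signals, then Ogn (0.46 and 0.52) and Gm26771 (0.44 and 0.67). Gm26771 is annotated over Sfrp2 on the other strand, so the UMIs of these 2 genes are uncertain. Prg4 ranked first for Frzb (0.35 and 0.39), C4b for Sfrp1 (0.29 and 0.37) and Wif1 for Wnt5a (0.23 and 0.28). For Axin2 the 3 genes ranked first had coefficients of at most 0.14.

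The endothelium was divided in the same manner by genes outside the pathway. Nts was taken from earlier results of these data, where it was named with Wnt9b and Dkk2 for the same endothelial cells. The ratios of Wnt9b and Dkk2 between the sets are therefore a description and not independent support. The Prox1 set held at least 3 UMIs of Prox1, Vwf and Emcn and more of these than of Nts, which encodes neurotensin, and the Nts set held Nts UMIs and more of them than of the others. There were 7 WT and 56 mgR cells in the Prox1 set and 9 and 47 in the Nts set. Most defining UMIs of the Prox1 set were of Emcn, 22 in WT and 197 in mgR cells. Prox1 had 13 and 91 UMIs there and Vwf 0 and 48. Emcn was also found in 33.3% of WT and 66.0% of mgR cells of the Nts set. Fibroblast markers summed to 970 CPM in WT and 655 CPM in mgR endothelium and T cell markers to 0 and 96.3 CPM, and their part in these values was not tested. Dkk2 was higher in the Nts set of both libraries. It had 22 UMIs (492 CPM) there and 2 UMIs (48.4 CPM) in the Prox1 set of WT cells, a ratio of 10.2 (2.5 to 89.1). In mgR cells it had 166 UMIs (518 CPM) and 52 UMIs (171 CPM), a ratio of 3.03 (2.21 to 4.22). With the gate on its own the ratios were 26.9 (6.65 to 236) and 6.75 (5.42 to 8.45).

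Wnt9b did not keep to one set. In mgR endothelium it was higher in the Nts set, with 162 UMIs (505 CPM) against 46 UMIs (151 CPM) and a ratio of 3.34 (2.40 to 4.74). In WT endothelium 7 UMIs (156 CPM) stood against 14 UMIs (339 CPM), a ratio of 0.462 (0.158 to 1.22). The 13 WT and 47 mgR cells of neither set stood at 254 CPM (110 to 500) and 437 CPM (358 to 528). The mgR interval overlapped that of the mgR Nts set, which was 430 to 589 CPM. With the gate on its own the WT ratio of the Nts to the Prox1 set was 0.40 (0.151 to 0.90) from 12 and 23 cells. The mgR ratio was 2.89 (2.39 to 3.5) from 82 and 281 cells. There the mgR cells of neither set stood at 164 CPM (137 to 195), below the Nts set at 349 CPM (305 to 398). The cell numbers of the WT sets are small and 1 WT cell of the endothelial gate held 23 Wnt9b UMIs. Of cells with Wnt9b UMIs, 55.6% in WT and 62.3% in mgR endothelium also held Dkk2, against 20% and 34.8% of the other endothelial cells. By the same ranking over these 29 and 150 cells, Inhba, a subunit of activin, was first for Wnt9b (0.56 and 0.57) and the third for Dkk2 (0.59 and 0.46), after Anxa8 (0.51 and 0.52) and Pmp22 (0.55 and 0.47).

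**Figure D4:**
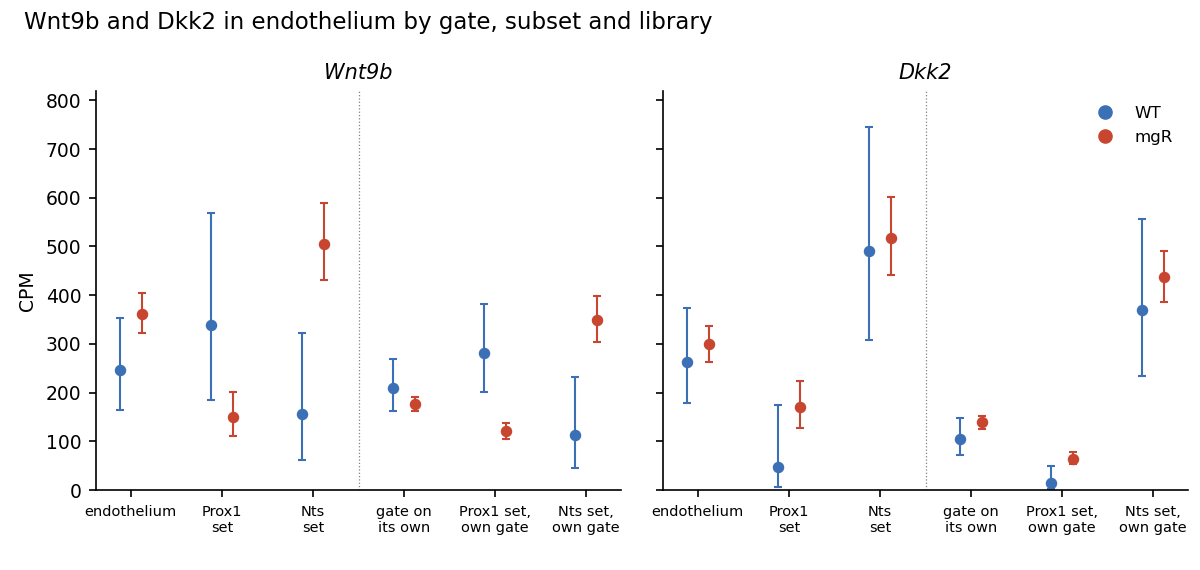
Level in CPM of Wnt9b and Dkk2 in endothelium by library (blue WT, red mgR), with 95% Poisson intervals, for cells that pass the endothelial gate and no other (left of the dotted line) and for the gate on its own (right), each whole and split into the Prox1 and the Nts set. Cells of neither set are not drawn. Among the groups drawn, Dkk2 is highest in the Nts set of both libraries, and Wnt9b only in that of mgR cells.

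To set these genes in their pathway, a list of 104 Wnt pathway genes in 9 roles, the 10 genes included, was examined. In fibroblasts 76 had at least 20 UMIs. Of these 8 (10.5%) were higher by 1.5-fold in the mgR library and 21 (27.6%) were lower, against 9.96% and 10.1% of all genes. The median log2 ratio was -0.24, and -0.05 over all genes. Without the 10 genes themselves 68 remained, 7 higher and 19 lower. In unmarked fibroblasts 45 list genes reached 20 UMIs, of which 8 were higher and 8 were lower, and the median was -0.090. The excess of lower genes was thus not found in these cells, for which the share of all genes was not calculated.

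Ligands and receptors made up 11 of the 21 lower genes. Of 7 measured ligands, 5 were lower (Wnt2, Wnt4, Wnt5b, Wnt11 and Wnt16) and none was higher. Wnt16 had 40 and 70 UMIs, a ratio of 0.476 (0.319 to 0.721), Wnt11 74 and 137 UMIs, a ratio of 0.504 (0.377 to 0.678), and Wnt4 17 and 25 UMIs, a ratio of 0.40 (0.208 to 0.790). For Wnt2 (0.583, 0.224 to 1.69) and Wnt5b (0.635, 0.279 to 1.58) the interval included 1. Of 15 receptors, 6 were lower and 1 was higher, Fzd9 (1.72, 0.874 to 3.75). Of the LRP coreceptors, Lrp5 had 99 and 149 UMIs, a ratio of 0.410 (0.316 to 0.534), and Lrp6 had 132 and 438 UMIs, a ratio of 0.903 (0.742 to 1.11) whose interval included 1. Fzd1 had a ratio of 0.659 (0.551 to 0.791). Ryk (1.03, 0.886 to 1.21) and Fzd6 (1.32, 0.537 to 3.88) were within counting error. The release machinery was near WT levels, with 0.896 (0.798 to 1.01) for Wls and 0.866 (0.430 to 1.89) for Porcn.

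Of the 8 secreted antagonists measured, Sfrp2 and Sfrp4 were higher, Sfrp4 with 2 and 25 UMIs (3.40, 0.849 to 29.6), and Wif1 was lower. Igfbp4, which also binds insulin-like growth factors, had a ratio of 1.13 (1.07 to 1.2). Of the membrane antagonists Apcdd1 was lower (0.637, 0.498 to 0.820), and Kremen1 (0.817, 0.527 to 1.30) and Znrf3 (0.976, 0.505 to 2.03) were within counting error. Rspo3, a secreted amplifier of Wnt signals, was at 269 and 614 UMIs (0.621, 0.538 to 0.720). Its receptor Lgr5 had 15 and 19 UMIs (0.345, 0.166 to 0.729) and Lgr4 26 and 67 UMIs (0.702, 0.440 to 1.15). Rspo1, with 2 and 33 UMIs, was higher (4.49, 1.15 to 38.6). No intracellular component of 15 was lower and 1 was higher, Ctnnbip1 (1.51, 1.01 to 2.33). Ctnnb1, which encodes β-catenin, had a ratio of 0.902 (0.792 to 1.03), Gsk3b 0.949 (0.826 to 1.09) and Csnk1a1 1.03 (0.929 to 1.15). Of the TCF and LEF factors and their cofactors, 4 of 12 were lower: Bcl9l (0.591, 0.464 to 0.756), Pygo2 (0.545, 0.340 to 0.890), Tle2 (0.607, 0.376 to 1.01) and the corepressor Tle4 (0.649, 0.504 to 0.84). Tle3 had a ratio of 0.728 (0.509 to 1.06) and Tle5 a ratio of 1.22 (1.1 to 1.36).

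Target genes lay on both sides. Of 10 measured, 3 were higher and 2 were lower. Of the higher ones, Ccn4 had 2 and 18 UMIs (2.45, 0.587 to 21.8). Ccn5 stood at 207 and 1238 UMIs (1.63, 1.40 to 1.90), and Ccnd1, encoding cyclin D1, at 135 and 867 UMIs (1.75, 1.46 to 2.11). Axin2 and Bambi, a decoy receptor for TGF-β family ligands that is also a Wnt target, were lower, Bambi from 265 and 603 UMIs (0.620, 0.535 to 0.719). Nkd1, which like Axin2 encodes a feedback inhibitor, had a ratio of 1.31 (0.926 to 1.90), and Cd44 a ratio of 0.855 (0.721 to 1.02).

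**Figure D5:**
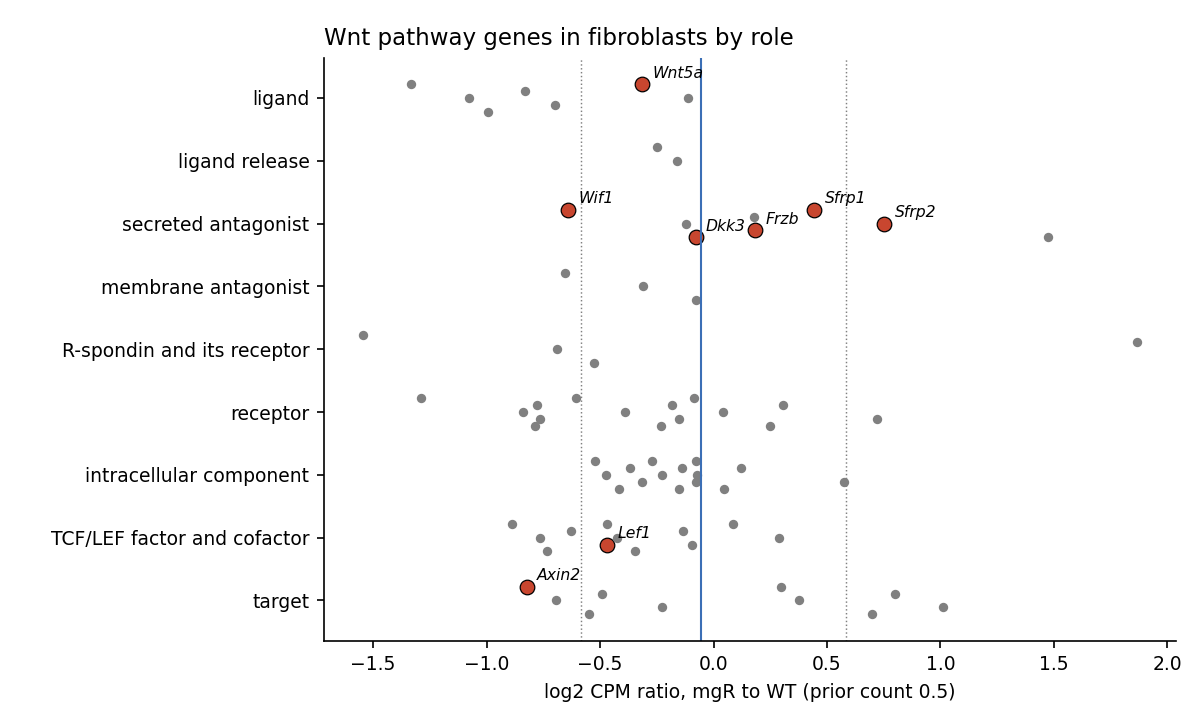
Log2 CPM ratio of mgR to WT fibroblasts for the 76 list genes with at least 20 UMIs, by role, with the selected genes in red; dotted lines mark 1.5-fold and the blue line the median over all genes. The ratios plotted include a prior count of 0.5, with which Ctnnbip1 lies just inside the upper dotted line. More list genes lie left of the lower dotted line than right of the upper one, and the secreted antagonists lie on both sides.

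In macrophages 40 list genes were measured, 7 were higher and 9 lower, against 19.1% and 8.19% of all genes. This balance was not stable, with 9 higher and 2 lower of 29 after thinning and 11 higher and 5 lower of 37 in Xist-only cells. Neutrophil markers summed to 2.77 CPM in WT and 81.5 CPM in mgR macrophages and red cell markers to 162 and 928 CPM, and their part in these values was not tested. Wnt11 had 22 and 56 UMIs, a ratio of 0.273 (0.164 to 0.470), and Wnt4 9 and 15 UMIs (0.179, 0.0734 to 0.464). The target gene Myc was lower, with 32 and 116 UMIs (0.389, 0.261 to 0.595), as was the corepressor Tle1 (0.422, 0.296 to 0.612). For Cxxc5 and Bambi, both with 11 and 49 UMIs, the ratio was 0.478 (0.245 to 1.02). Ryk was at 4 and 99 UMIs (2.66, 1.01 to 9.95) and Bcl9 at 6 and 118 UMIs (2.11, 0.942 to 5.87). The median log2 ratio of the list was 0.13, and that of all genes 0.10. Scaling macrophages by the median of gene ratios lowered every log2 ratio by 0.13. In endothelium 33 list genes were measured, 3 higher and 9 lower, against 21.6% and 17.6% of all genes. These counts changed with the cells used. Of 18 list genes measured after thinning, 7 were higher and 4 lower. The counts were 7 and 3 of 25 in Xist-only, 5 and 2 of 14 in Y-only and 5 and 0 of 13 in unmarked cells. For these macrophage and endothelial alternatives the share of all genes was not calculated. Igfbp4 had 4 and 74 UMIs (2.49, 0.934 to 9.39) and Fzd6 14 and 40 UMIs (0.385, 0.205 to 0.766). With the gate on its own these ratios were 0.993 and 1.14. Ccnd1 had 2 and 157 UMIs (10.6, 2.88 to 88.1), and with the gate on its own the ratio was 1.51 (1.12 to 2.08). Wnt4 (1.21, 0.739 to 2.09) and Wnt2 (1.12, 0.595 to 2.31), 2 further ligands of the endothelium, were within counting error.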

How the data were processed

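Mitral valve cells of WT and mgR mice were profiled with 1 library per genotype. The authors deposited raw counts: each matrix gives UMIs by gene and barcode, made with Cell Ranger 7.1.0 and mm10 per the submitters' processing notes. The WT matrix held 1104 barcodes and 5381844 UMIs, the mgR matrix 3802 and 28215539.

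Groups were taken from the library names in the labels. The members, the gene list and the subset genes were chosen with earlier results of these data known. Alternatives changed the gates, the mitochondrial limit, depth, scaling, the UMI minimum and the cells compared. Cells were filtered and gated as described above, and a subset required at least 3 UMIs (1 for Nts). Doublets were not removed. Scrublet marked 7 WT and 51 mgR cells. CPM are UMIs per 1000000 of the cell type. Intervals are exact Poisson for levels, Clopper-Pearson for shares and conditional binomial for ratios, at 95%, and cover counting error only. Log2 ratios used a prior count of 0.5, and a count of 0 was taken to allow 3. List genes needed 20 UMIs over both libraries. The text names the members, Fbn1, the 3 list genes per role with the highest CPM in fibroblasts or endothelium, list genes with at least 50 UMIs and a ratio past 2-fold, and for each member in at least 10% of cells the 3 most correlated genes. Wnt5b, Sfrp4, Fzd9, Rspo1, Ctnnbip1, Bcl9l, Pygo2, Tle2, Ccn4 and Lrp6 fall outside this rule and were named after their values were seen, to complete small counts or, for Lrp6, a pair. Gene positions came from GENCODE for GRCm38 by gene identifier, which matched 32158 of 32285 features. Intervals were checked on Poisson counts simulated from the WT fibroblast sums. Such counts hold no clustering of UMIs in single cells, so the check does not cover it. Python 3.11.15, numpy 2.4.6, scipy 1.17.1, scanpy 1.11.5 and matplotlib 3.10.9 were used.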

Additional observations from a re-analysis of the deposited data

Results flagged for a closer look

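In 3 genes the ratio of mgR to WT lay on opposite sides of 1 in Xist-only cells, which held Xist UMIs and no Y-linked ones, and in Y-only cells, which were the reverse. The difference between these groups of cells was not tested, since each holds 1 library per genotype. Frzb in fibroblasts had a ratio of 1.40 (1.1 to 1.80), from 155 CPM in WT and 217 CPM in mgR, in Xist-only cells. In Y-only cells it was 0.815 (0.657 to 1.01), from 182 and 149 CPM. Dkk3 in fibroblasts had ratios of 1.08 (0.972 to 1.19) and 0.869 (0.796 to 0.949). Dkk2 in endothelium had ratios of 1.81 (0.899 to 4.26), from 8 WT and 176 mgR UMIs, and 0.465 (0.244 to 0.935), from 14 and 35 UMIs. The Dkk2 values rest on 9 and 7 WT cells.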

How the results depend on the processing

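No paired analysis was possible because each genotype had 1 library. Of 148 alternative values of the members' log2 ratios, 112 stayed within the counting interval of the reported one. Another 32 left it, some of them with a change of sign. The other 4 turned the sign of a log2 ratio whose ratio interval excluded 1. Among these 4, Wnt9b in Xist-only endothelium changed sign only through the prior count. The cause of these changes was not tested except where stated. Values below are log2 ratios of mgR to WT, and the reported ones are Wif1 -0.64, Wnt5a -0.31, Dkk3 -0.079, Sfrp1 0.44, Sfrp2 0.75, Frzb 0.18, Axin2 -0.82, Lef1 -0.47 and Dkk2 -1.88 in fibroblasts, Dkk3 -1.55 in macrophages, and Wnt9b 0.53 and Dkk2 0.16 in endothelium. Axin2 in fibroblasts stayed within its counting interval under every alternative run.

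With each gate on its own, which adds cells that pass several gates, Wif1 was -0.87, Dkk3 -0.32, Sfrp1 0.17, Sfrp2 0.46 and Frzb -0.083 in fibroblasts, Dkk2 changed sign to 2.15 there, and Wnt9b changed sign to -0.27 in endothelium. A mitochondrial limit of 5% gave Wif1 -0.52, and thinning to 2000 UMIs gave Frzb -0.077. In Xist-only cells, Wif1 was -1.07, Dkk3 0.10, Sfrp1 0.12, Sfrp2 0.22, Frzb 0.47 and Lef1 -1.87 in fibroblasts. In Xist-only endothelium Dkk2 was 0.77 and Wnt9b was -0.012. The sign of that Wnt9b value comes from the prior count, since its CPM ratio was 1.03 (0.572 to 2.04). In Y-only cells, Wif1 was -0.78, Dkk3 -0.20, Sfrp2 0.39, Frzb -0.30 and Dkk2 in endothelium -1.14. In unmarked cells, an alternative chosen after seeing the data, Wif1 and Wnt5a changed sign to 0.16 and 0.15, and Dkk3 was -0.20, Sfrp1 0.72, Sfrp2 1.96, Frzb -0.090 and Wnt9b 1.34. Without the 10 cells with the most UMIs of the gene, Wif1 was -0.36, Sfrp1 0.66, Sfrp2 1.42, Lef1 3.31, Dkk3 in macrophages 0.63, and Wnt9b 4.86 and Dkk2 4.76 in endothelium. All of these values follow in part from the construction, since 10 cells are a larger share of the WT cells, and those for Lef1, Wnt9b, Dkk2 and Dkk3 in macrophages follow from it wholly, since all of their WT UMIs lay in at most 10 cells. The unthinned share of fibroblasts with a Frzb UMI differed by 9.63 points in place of -0.944.

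For the Wnt pathway list, the reported counts of genes higher and lower are 8 and 21 in fibroblasts, 7 and 9 in macrophages and 3 and 9 in endothelium. A minimum of 1 UMI gave 18 higher in fibroblasts, 28 and 19 in macrophages and 28 and 25 in endothelium. A minimum of 50 UMIs gave 5 higher in fibroblasts, 4 higher in macrophages and 2 lower in endothelium. Xist-only cells gave 3 higher in fibroblasts, 11 and 5 in macrophages and 7 and 3 in endothelium. Y-only cells gave 3 higher in macrophages and 5 and 2 in endothelium. Unmarked cells gave 8 and 8 in fibroblasts, 4 and 4 in macrophages and 5 and 0 in endothelium. Fewer genes reach 20 UMIs in these smaller groups. Thinning gave 2 lower in macrophages and 7 and 4 in endothelium. In endothelium each gate on its own gave 7 and 16 of 61, where 17.2% and 17.0% of all genes were higher and lower. The mean of per-cell CPM gave 6 higher there. For the other alternatives the share of all genes was not calculated, so these counts describe the list alone.

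The list median in fibroblasts was -0.24, and -0.090 in unmarked cells. In macrophages it was 0.13, then 0.29 in Xist-only cells, -0.10 in unmarked cells, 0.37 after thinning and 0.0011 with a median-ratio scale. In endothelium it was -0.23, then -0.092 with gates at 2 times the minimum, -0.079 at a mitochondrial limit of 5%, 0.24 in Y-only cells, 0.033 in unmarked cells, 0.086 after thinning and 0.050 with a minimum of 50 UMIs. The endothelial list values thus have no stable direction. The 29 WT endothelial cells, with 117580 UMIs in all, limit every endothelial value.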
